A study of Mus musculus with 6 samples.

Results

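The 10 glycolytic enzymes Hk2, Gpi1, Pfkl, Aldoa, Tpi1, Pgk1, Pgam1, Eno1, Pkm and Ldha were examined in the white fat that lies under the skin of mice. They were chosen by name, 1 isoform for each step from glucose to lactate except the Gapdh step, and all 10 had a single row among the 36144 rows of the deposited table. The values are TPM (transcripts per 1000000), shares of all transcripts in a library after correction for transcript length. The series holds 6 poly-A RNA libraries, 3 titled Tumor and 3 titled WT, each group numbered as biological replicates 1 to 3. The genotype label calls the Tumor set MSRA full-body KO and the WT set MSRA WT, and the treatment label is Orthotopic transplant for both sets. The design text describes pancreatic ductal adenocarcinoma cells placed in the pancreas of MSRA WT or MSRA full-body KO hosts, with fat collected 4 to 5 weeks later, while the series title sets tumor-bearing mice against controls without a tumor. The sources used here give no strain, age or sex. Groups are therefore called Tumor and WT after the titles, and a tumor effect and a genotype effect cannot be told apart.

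Msra, the gene that the genotype label gives as knocked out, stood at 52.9, 40.0 and 26.9 TPM in the Tumor libraries against 51.1, 59.1 and 56.3 TPM in the WT libraries. Its level was thus not lost in any library labelled KO, and Tumor replicate 1 lay within the WT range. A value for the whole gene does not show whether the transcript is intact, so it does not settle the genotype. Directions below go by the titles alone.

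Glycolysis splits glucose into pyruvate in the cytosol and yields ATP and NADH, and lactate dehydrogenase turns pyruvate into lactate while giving back NAD+. In fat cells the pathway also supplies glycerol-3-phosphate for triglycerides and pyruvate carbon for fatty acid synthesis. Insulin raises sugar uptake and Hk2 in adipocytes, and low oxygen induces many of these genes through the factor HIF-1.

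The libraries differed in the cells they held. Most of 13 cell type marker lists had summed levels that overlapped between the groups, while those of thermogenic fat and of macrophages, given further on, did not. The 10 B cell markers summed to 11.8 TPM in Tumor replicate 1 and 5.34 TPM in WT replicate 3, against 835 to 2711 TPM in the other 4 libraries, none of the 10 being listed at 0 in any library. The 4 lymph node stroma markers divided the libraries in the same way, at 54.4 and 42.4 TPM against 1456 to 2970 TPM. Skeletal muscle markers summed to 995 to 3603 TPM in Tumor libraries and to 118, 4534 and 186 TPM in WT replicates 1, 2 and 3, with 1 of the 16 listed at 0 in WT replicate 3. The 11 adipocyte markers were found in every library, at 48018, 35287 and 13527 TPM in Tumor replicates 1, 2 and 3 and at 32820 to 57851 TPM in WT libraries. Read depth is unknown because TPM does not keep it, and the test covered the 14144 genes that reached 1 TPM in 3 or more libraries.

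All 10 glycolytic enzymes had a lower group mean in the Tumor libraries, and for 7 of them every Tumor library lay below every WT library. Those 7 were Hk2, Pfkl, Aldoa, Pgam1, Eno1, Pkm and Ldha, and the groups overlapped for Gpi1, Tpi1 and Pgk1. Summed, the 10 enzymes took 3516, 3210 and 3006 TPM in Tumor libraries against 5212, 5196 and 5002 TPM in WT libraries, which was 0.324% ± 0.0257 against 0.514% ± 0.0117 of all transcripts (SD, n = 3 each). Over all genes tested, 3.24% were lower in the same non-overlapping way and 11.8% were higher, and 23.2% had a difference below 0. The median difference on the log2(TPM + 1) scale, Tumor minus WT, was -0.59 over the 10 enzymes and 0.23 over all genes.

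No single enzyme passed the test. With limma over all 14144 genes and Benjamini-Hochberg adjustment, 0 of 10 enzymes and 0% of all genes had an adjusted p below 0.05, and the adjusted p of each of the 10 was 0.737. Without adjustment 6 enzymes had p below 0.05, all lower, against 1.7% of all genes lower and 5.45% in either direction. These were Pfkl, Eno1, Aldoa, Pgam1, Ldha and Hk2. The count was 3 without Tumor replicate 2 and 3 without WT replicate 1, where 2.5% and 5.62% of all genes had such a p in either direction. An exact two-sided permutation test gave p = 0.1 for each of the 7 enzymes without overlap, the smallest that 3 against 3 libraries allow. In bulk tissue, fewer cells of a type and less RNA per cell cannot be told apart.

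**Figure D1:**
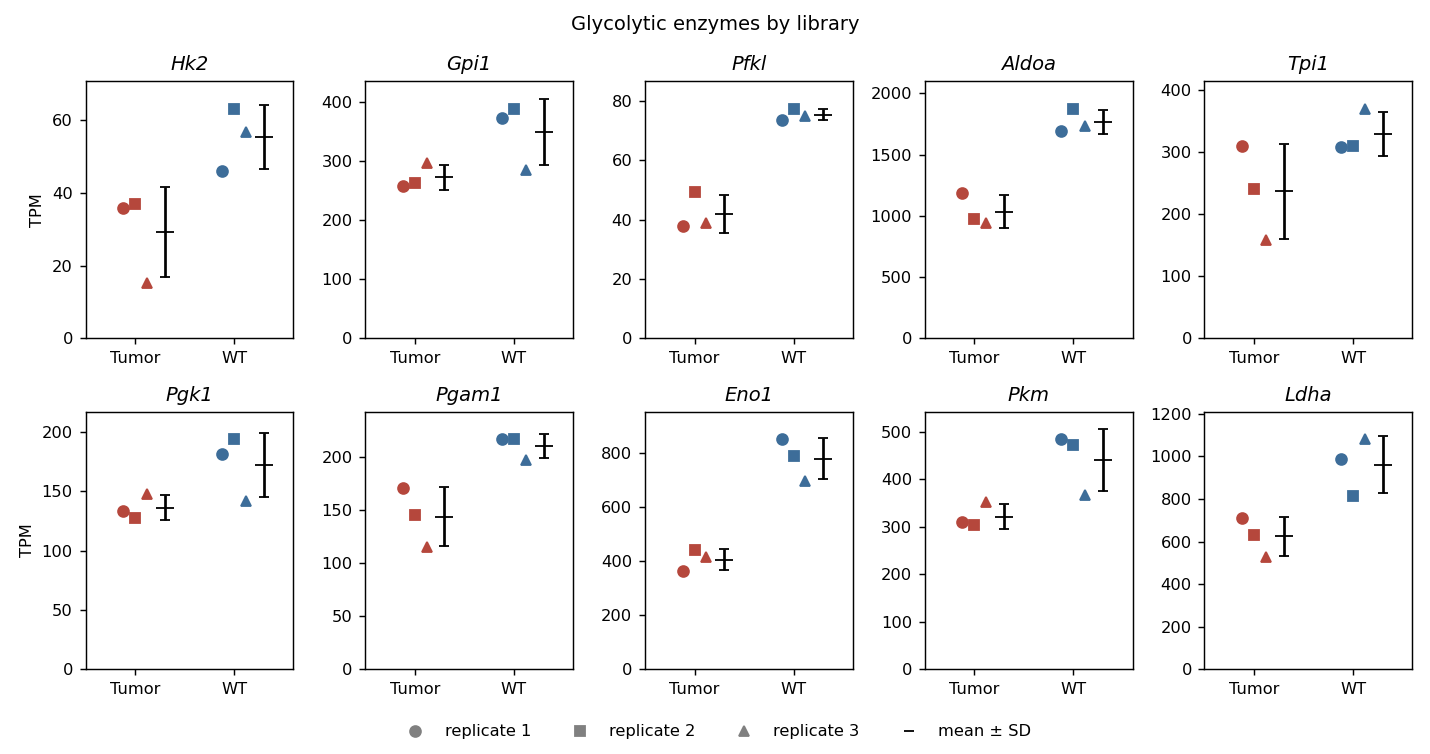
TPM of each enzyme (y axis, from 0) in the Tumor libraries and the WT libraries, with markers by replicate number and the mean ± SD (n = 3) beside each group. For Eno1 the Tumor libraries lie between 361 and 439 TPM and the WT libraries between 697 and 849 TPM, while the groups overlap for Gpi1, Tpi1 and Pgk1.

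Among the enzymes that prepare glucose for splitting, the groups were apart for Hk2, Pfkl and Aldoa and overlapped for Gpi1 and Tpi1. Hk2, the insulin-responsive hexokinase that traps glucose as glucose-6-phosphate (chr6:82725025-82774454, GRCm38, GENCODE M21, the source of all gene coordinates here), stood at 35.8, 36.9 and 15.1 TPM in Tumor libraries and at 46.1, 63.2 and 56.9 TPM in WT libraries. Tumor replicate 3 was far below the others, at 27.3% of the WT mean, where Tumor replicates 1 and 2 were at 64.7% and 66.6%. The log2 difference of Hk2 was -0.99 (SE 0.37), the largest of the 10 in size, and its coefficient of variation in the Tumor group, 42.0%, was also the highest. Without Tumor replicate 3 the difference of Hk2 was -0.58, smaller in size than that of Eno1 at -0.96.

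Gpi1, which turns glucose-6-phosphate into fructose-6-phosphate (chr7:34201330-34230336), had 257, 263 and 297 TPM in Tumor libraries and 373, 389 and 286 TPM in WT libraries. WT replicate 3 lay below Tumor replicate 3, so the groups overlapped, and the log2 difference was -0.35 (SE 0.20).

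Pfkl, the liver-type subunit of phosphofructokinase, which commits sugar to glycolysis (chr10:77986947-78010083), had 37.7, 49.4 and 39.1 TPM in Tumor libraries and 73.6, 77.5 and 75.1 TPM in WT libraries. The 3 WT values were close together, with a coefficient of variation of 2.56%, and every Tumor library was at 50.0% to 65.5% of their mean. Its log2 difference of -0.84 (SE 0.16) had the smallest unadjusted p of the 10, 0.00182, rank 22 among all genes tested.

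Aldoa, the aldolase that cleaves fructose-1,6-bisphosphate, was the most abundant member, at 1189, 973 and 938 TPM in Tumor libraries and 1689.9, 1875 and 1733 TPM in WT libraries. Every WT library was above every Tumor library, and the log2 difference was -0.78 (SE 0.22). The annotation holds 2 adjoining Aldoa records on the minus strand, chr7:126795234-126800751 and chr7:126800790-126809108, and the sources used here do not say which of them the row stands for. Tpi1, which interconverts the products of aldolase (chr6:124810586-124814296), had 311, 241 and 158 TPM in Tumor libraries and 309, 309 and 370 TPM in WT libraries. Tumor replicate 1 reached the WT range and Tumor replicate 3 was at 48.1% of the WT mean, so that its coefficient of variation in the Tumor group, 32.2%, was second to that of Hk2. The log2 difference of Tpi1 was -0.52 (SE 0.28) and -0.26 without Tumor replicate 3.

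Among the enzymes that yield ATP and pyruvate, enolase differed most. Pgk1, an X-linked kinase that makes ATP from bisphosphoglycerate (chrX:106187100-106203699), had 134, 128 and 148 TPM in Tumor libraries and 181, 194 and 142 TPM in WT libraries. WT replicate 3 lay inside the Tumor range, and the log2 difference, -0.33 (SE 0.18), was the smallest of the 10 in size. Pgam1, which moves the phosphate on phosphoglycerate (chr19:41911923-41918660), had 171, 146 and 116 TPM in Tumor libraries and 217.0, 217.0 and 198 TPM in WT libraries. Its groups were apart, with a log2 difference of -0.56 (SE 0.19).

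Eno1, enolase 1, makes phosphoenolpyruvate (chr4:150236721-150248879) and had 361, 439 and 414 TPM in Tumor libraries and 849, 787 and 697 TPM in WT libraries. The Tumor mean was 52.1% of the WT mean, the lowest share of the 10, and the log2 difference was -0.94 (SE 0.20, unadjusted p = 0.00291, rank 40 among all genes tested). Pkm, pyruvate kinase (chr9:59656368-59679375), had 309, 303 and 352 TPM in Tumor libraries and 484, 471 and 366 TPM in WT libraries. The gap between Tumor replicate 3 and WT replicate 3 was small, and the log2 difference was -0.45 (SE 0.20). Pkm is spliced into M1 and M2 forms, which a value for the whole gene does not show.

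Ldha, the subunit that favours making lactate (chr7:46841475-46855627), had 711, 632 and 529 TPM in Tumor libraries and 989.9, 813 and 1079 TPM in WT libraries. Every WT library was above every Tumor library, with a log2 difference of -0.62 (SE 0.23). Several of these genes have near-identical processed copies, and the sources used here do not say how shared reads were divided. Copies with rows of their own were looked up only by names derived from the member's name, and not for Hk2, Gpi1, Pfkl and Pkm. Copies under other names were left out. The copies found stood low. Those of Ldha, Pgk1, Tpi1, Aldoa and Eno1 summed to at most 0.0168%, 0.103%, 0.194%, 0.00599% and 0.193% of the member's TPM in any library, and both Pgam1 copies were listed at 0.

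**Figure D2:**
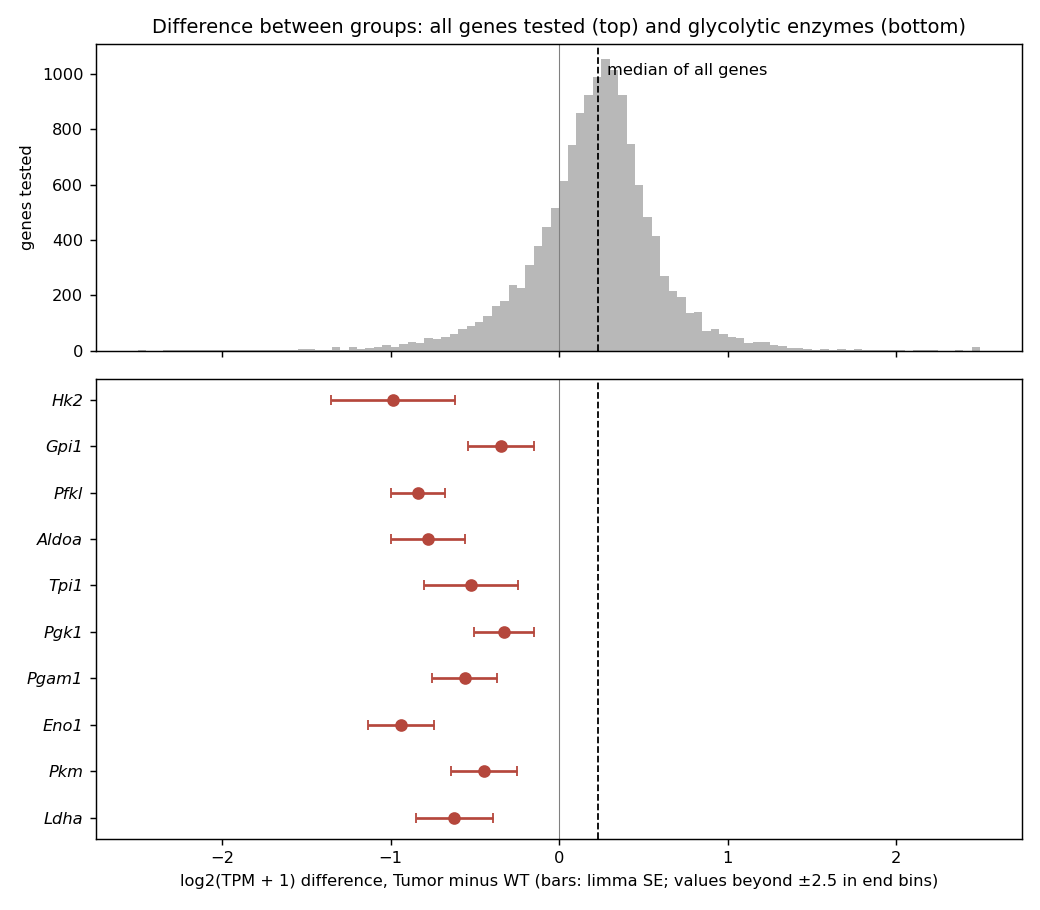
Top, number of genes tested (y axis) by log2(TPM + 1) difference, Tumor minus WT, with the median of all genes at 0.23 as a dashed line. Bottom, the same difference for each enzyme with limma's SE, from -0.99 for Hk2 to -0.33 for Pgk1, all left of 0.

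TPM is per length, so that genes can be set side by side, and the order of mean levels was the same in both groups. Aldoa, Ldha, Eno1, Pkm, Gpi1, Tpi1, Pgam1, Pgk1, Pfkl and Hk2 followed each other from high to low mean TPM in Tumor and in WT libraries alike. In Tumor libraries the ranges of Gpi1 and Tpi1, of Tpi1 and Pgam1, and of Pgam1 and Pgk1 overlapped. In WT libraries those of Ldha and Eno1, of Pkm and Gpi1, and of Gpi1 and Tpi1 did. The members did not share 1 order of libraries. Tumor replicate 3 was the lowest of all 6 libraries for 5 members (Hk2, Aldoa, Tpi1, Pgam1 and Ldha), Tumor replicate 1 for 3 (Gpi1, Pfkl and Eno1) and Tumor replicate 2 for 2 (Pgk1 and Pkm). Tumor replicate 3 also had the lowest adipocyte marker sum, 13527 TPM, but was the highest Tumor library for 3 members. WT replicate 3 had the highest adipocyte sum, 57851 TPM, and was the lowest WT library for 5 members. A link between this sum and the enzymes was not tested. WT replicate 2 was the highest of all 6 for 6 members.

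Isoenzymes of the same steps did not all go with the members. Hk2 made up 49.6%, 57.4% and 33.4% of the TPM of Hk1, Hk2 and Hk3 together in Tumor libraries and 64.2%, 77.1% and 74.5% in WT libraries. Hk1, the broadly expressed hexokinase, stood at 17.4, 20.6 and 25.7 TPM in Tumor libraries and at 21.7, 14.4 and 14.9 TPM in WT libraries, so its groups overlapped. Hk3, a hexokinase of myeloid cells, stood at 18.9, 6.78 and 4.50 TPM in Tumor libraries and at 4.00, 4.37 and 4.60 TPM in WT libraries. Tumor replicate 1, with the most Hk3, also had the highest sum of the 8 macrophage markers, 4007 TPM against 1628 to 2954 TPM in the other 5 libraries. Tumor replicate 3 had the next highest sum, 2954 TPM, but its Hk3 lay within the WT range. The part of these cells in Hk3 was not tested.

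Pfkl made up 30.9%, 44.5% and 30.7% of phosphofructokinase TPM in Tumor libraries and 47.3%, 48.1% and 46.5% in WT libraries. Exact two-sided permutation tests gave p = 0.1 for the Hk2, Hk3 and Pfkl shares, the smallest possible value, among 17 isoenzyme shares tested, and no adjusted value could pass. Pfkm, the muscle-type subunit, stood at 30.5, 16.1 and 32.9 TPM in Tumor libraries and at 14.0, 34.9 and 16.3 TPM in WT libraries. Pfkp, the platelet-type subunit, stood at 53.7, 45.5 and 55.1 TPM in Tumor libraries and at 68.1, 48.8 and 70.1 TPM in WT libraries.

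Muscle isoenzymes stood highest in the libraries with the most muscle RNA. Eno3, muscle enolase, stood at 75.6, 60.5 and 148 TPM in Tumor libraries and at 35.4, 118 and 17.1 TPM in WT libraries. Pgam2, muscle phosphoglycerate mutase, stood at 36.7, 11.9 and 60.9 TPM in Tumor libraries, at 0.806 and 67.7 TPM in WT replicates 1 and 2, and was listed at 0 in WT replicate 3. The WT library with the most muscle RNA, replicate 2, was the WT library with the most Eno3, Pgam2 and Pfkm. For enolase as a whole, Eno1, Eno2 and Eno3 summed to 448, 507 and 577 TPM in Tumor libraries and 897, 912 and 718 TPM in WT libraries, without overlap. For phosphoglycerate mutase the sums were 208, 158 and 177 TPM in Tumor libraries and 218, 285 and 198 TPM in WT libraries, which overlapped. Ldha made up 91.3%, 92.0% and 93.4% of lactate dehydrogenase TPM in Tumor libraries and 92.9%, 84.8% and 92.9% in WT libraries, and these shares overlapped.

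**Figure D3:**
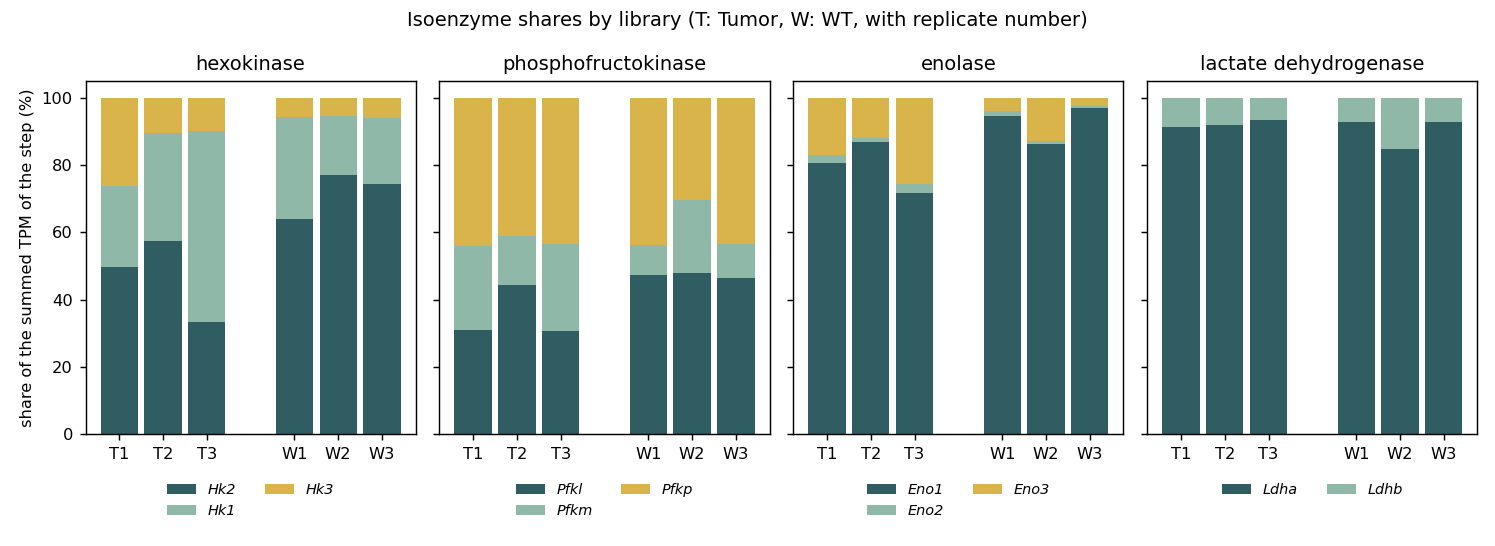
Share (y axis, %) of each isoenzyme in the summed TPM of its step, 1 bar per library (T for Tumor, W for WT, with replicate number). The Hk2 share lies between 33.4% and 57.4% in Tumor libraries and between 64.2% and 77.1% in WT libraries, and the Eno3 share is highest in the libraries rich in muscle markers.

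The enzymes were also set side by side among libraries of like lymphoid content, a division made after the values were seen. For the 7 enzymes without overlap over all 6 libraries, lower Tumor values in any such division follow from that alone, so only Gpi1, Tpi1 and Pgk1 could differ. Among the 4 libraries rich in lymphoid transcripts, both Tumor libraries (replicates 2 and 3) lay below both WT libraries (replicates 1 and 2) for 10 of 10 enzymes, where 7.91% of all genes tested did so. Between the 2 libraries poor in them, Tumor replicate 1 was below WT replicate 3 for 10 of 10, where 30.2% of all genes were. Both held for 5.66% of all genes tested. Gpi1, Tpi1 and Pgk1 were lower in both divisions, as were 2.51% of the 13686 genes that were not lower without overlap over all 6 libraries. Among the lymphoid-rich libraries the log2 differences ran from -1.15 for Hk2 to -0.45 for Pgk1 with a median of -0.70. Between the lymphoid-poor libraries, 1 against 1 and so with no replicate check, they ran from -0.97 for Pfkl to -0.086 for Pgk1 with a median of -0.40. Over all genes the medians were 0.24 and 0.16.

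**Figure D4:**
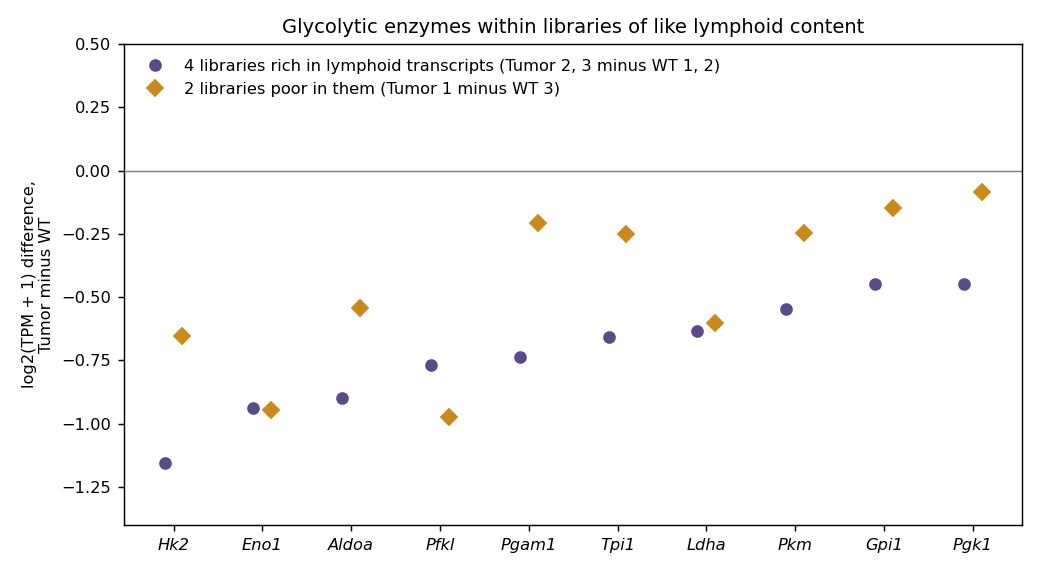
Log2(TPM + 1) difference, Tumor minus WT (y axis), for each enzyme among the 4 libraries rich in lymphoid transcripts (circles) and between the 2 libraries poor in them (diamonds). All 20 points lie below 0, and Pgk1 between the 2 lymphoid-poor libraries, at -0.086, is nearest to it.

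Scaling moved the median of all genes from 0.23 in TPM to 0.03 under median-ratio scaling and 0.06 under upper-quartile scaling, and the enzymes are given against it too. With those factors all 10 enzymes were without overlap, against 6.87% and 5.62% of all genes, while 45.8% and 42% of all genes had a difference below 0. After rescaling without mitochondrial genome transcripts, B cell genes and muscle genes, again all 10 were, against 3.87% of all genes, with 29.2% below 0. Relative to the median of all genes the enzyme median was -0.82 in TPM and -0.85 under both factors.

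Of 13 cell type marker lists, 2 had summed levels that did not overlap between the groups, those of thermogenic fat and of macrophages. The 6 brown or beige adipocyte markers summed to 63.8, 104 and 79.2 TPM in Tumor libraries against 276, 1199 and 176 TPM in WT libraries. Of these 6, 5 were lower without overlap, against 3.24% of all genes tested. Elovl3, 1 of those 5, was listed at 0 in Tumor replicate 3. The 8 macrophage markers summed to 4007, 2261 and 2954 TPM in Tumor libraries against 2013, 1782 and 1628 TPM in WT libraries. Of these 8, 3 were higher without overlap, against 11.8% of all genes tested. With each list as a covariate, fits chosen after the values were seen, the enzyme median was -0.72 (thermogenic) and -0.79 (macrophage). Because both lists were apart between the groups, these fits can separate list from group only poorly. With the thermogenic list the SE of each enzyme was larger than without it, for Hk2 0.75 in place of 0.37. In the thermogenic fit Gpi1 and Pgk1 had differences of 0.01 and 0.03, and the other 8 enzymes were below 0, with Pkm at -0.18 and Ldha at -1.02. No enzyme had an unadjusted p below 0.05 in that fit, where 3.01% of all genes did, and 7 did in the macrophage fit, where 25.7% of all genes did. The other covariates gave -0.56 (B cell), -0.55 (muscle) and -0.52 (adipocyte), with all 10 enzymes below 0.

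The rest of the pathway gave no call either. Of 48 other glycolytic and linked genes 41 could be tested, and limma called 0 at an adjusted p below 0.05. At an unadjusted p below 0.05 there were 2, both lower. Of all genes 1.7% were lower with such a p, and 5.45% had it in either direction. They were Ldhb and Gapdh, and Gapdh is the step without a member. Gapdh, which makes NADH and is often used as a reference gene, stood at 1065, 953 and 1141 TPM in Tumor libraries and at 1784, 1838 and 1498 TPM in WT libraries. Its groups were apart, by -0.69 on the log2 scale (SE 0.22, adjusted p = 0.737 with limma). Ldhb, the other main subunit of lactate dehydrogenase, stood at 67.8, 54.6 and 37.5 TPM in Tumor libraries and at 76.1, 146 and 83.1 TPM in WT libraries, with WT replicate 2 far above the rest. Of the 17 other isoenzymes 11 were tested, with 3 differences below 0 and 8 above, and a median of 0.32. The 6 not tested reached at most 1.17 TPM in any library.

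Regulators, transporters and hypoxia genes had log2 differences on both sides of 0. Over all genes tested, 3.24% were lower without overlap between the groups and 11.8% were higher. Of all genes 23.2% had a difference below 0, and their median was 0.23, so 0 is not the middle of these data. Among the 6 flux regulators tested (the Pfkfb family, Tigar and Fbp2) 3 were below 0, the median was -0.16, and 2, Pfkfb2 and Pfkfb4, were higher without overlap. Pfkfb4, of the family that makes and breaks down fructose-2,6-bisphosphate, stood at 21.7, 13.7 and 13.1 TPM in Tumor libraries against 12.1, 7.55 and 12.9 TPM in WT libraries, and Fbp2, a fructose bisphosphatase, at 1.34, 0.925 and 0.672 TPM against 0.799, 5.60 and 2.43 TPM in WT libraries. Among 8 sugar and lactate transport genes 3 were below 0, with a median of 0.18. The 1 without overlap was Slc16a1, which carries lactate and pyruvate across the membrane and stood at 23.2, 18.6 and 17.2 TPM in Tumor libraries against 24.4, 23.3 and 34.2 TPM in WT libraries, a narrow gap. Slc2a4, the insulin-regulated glucose transporter, stood at 109, 106 and 31.7 TPM in Tumor libraries against 131, 106 and 175 TPM in WT libraries.

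For the next 2 lists too, the median of all genes was 0.23, with 23.2% of them below 0. Among 6 transcription regulators the median log2 difference was 0.09, with 3 below 0. Mlxipl, which encodes the sugar-sensing factor ChREBP, stood at 69.6, 54.5 and 20.3 TPM in Tumor libraries and at 83.3, 60.0 and 161 TPM in WT libraries, and Arnt, the partner of HIF factors, at 32.5, 28.9 and 26.6 TPM in Tumor libraries against 22.6, 17.8 and 28.8 TPM in WT libraries. Both pairs of groups overlapped. Of 10 hypoxia-induced genes outside glycolysis 5 were below 0, the median was 0.003 and none was without overlap between the groups. Car9, a carbonic anhydrase, stood at 1.90, 1.71 and 0.809 TPM in Tumor libraries against 1.50, 0.466 and 0.282 TPM in WT libraries, and Ddit4, a stress-induced inhibitor of mTORC1, at 30.5, 68.6 and 103 TPM in Tumor libraries against 106, 77.2 and 98.9 TPM in WT libraries.

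Promoter windows are shown for the enzymes with the largest and smallest differences (Hk2, Eno1, Pfkl and Pgk1) and for Ldha. Ldha holds the most matches to ACGTG, a form of the core letters that HIF factors bind. Other forms of that core were not searched and are not marked. The sequences come from RefSeq on GRCm38.p6, 300 bases around a listed start with most of them before it. They are written 5′ to 3′ along the gene's strand. A gene can have several listed starts, and not every window of Eno1 (3) and Ldha (2) is shown. The windows of Hk2 and Pgk1 span the gene start given above, while those of Eno1, Pfkl and Ldha lie inside the gene coordinates given above. Capitals mark ACGTG on either strand, that is ACGTG or CACGT.
Hk2 (chr6:82774405-82774704, minus strand): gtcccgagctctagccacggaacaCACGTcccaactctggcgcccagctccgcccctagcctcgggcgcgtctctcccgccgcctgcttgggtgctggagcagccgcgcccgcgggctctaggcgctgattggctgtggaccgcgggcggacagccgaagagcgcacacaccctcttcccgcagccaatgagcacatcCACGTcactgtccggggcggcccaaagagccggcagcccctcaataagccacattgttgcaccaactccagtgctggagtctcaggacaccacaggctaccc
Eno1 (chr4:150236947-150237246, plus strand): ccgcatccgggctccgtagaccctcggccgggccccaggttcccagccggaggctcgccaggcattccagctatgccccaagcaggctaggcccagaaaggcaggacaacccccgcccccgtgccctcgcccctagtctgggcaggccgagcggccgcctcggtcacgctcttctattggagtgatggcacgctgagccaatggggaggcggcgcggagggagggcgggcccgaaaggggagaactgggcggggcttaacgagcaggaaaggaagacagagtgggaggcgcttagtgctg
Pfkl (chr10:78009758-78010057, minus strand): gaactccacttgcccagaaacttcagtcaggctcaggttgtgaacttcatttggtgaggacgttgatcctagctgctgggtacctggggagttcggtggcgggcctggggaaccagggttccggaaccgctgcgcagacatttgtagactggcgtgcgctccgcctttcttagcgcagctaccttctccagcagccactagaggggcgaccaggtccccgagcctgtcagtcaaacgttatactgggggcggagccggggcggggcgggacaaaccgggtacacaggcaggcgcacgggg
Pgk1 (chrX:106186850-106187149, plus strand): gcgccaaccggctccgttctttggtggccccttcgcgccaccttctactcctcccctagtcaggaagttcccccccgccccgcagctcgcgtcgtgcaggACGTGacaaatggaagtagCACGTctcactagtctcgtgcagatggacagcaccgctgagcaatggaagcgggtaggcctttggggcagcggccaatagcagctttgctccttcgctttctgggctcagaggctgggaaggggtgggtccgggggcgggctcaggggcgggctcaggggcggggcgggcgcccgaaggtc
Ldha (chr7:46845554-46845853, plus strand): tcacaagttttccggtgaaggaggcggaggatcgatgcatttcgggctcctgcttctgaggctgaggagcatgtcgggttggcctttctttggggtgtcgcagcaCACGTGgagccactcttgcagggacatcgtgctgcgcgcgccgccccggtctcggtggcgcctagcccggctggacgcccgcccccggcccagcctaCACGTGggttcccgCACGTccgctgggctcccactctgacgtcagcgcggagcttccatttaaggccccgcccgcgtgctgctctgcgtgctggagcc

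All 10 enzymes matched the promoter table, with 16 windows between them. ACGTG was found in a window of 6 of 10 enzymes, against 21.8% of all 27025 genes in the table, and in 7 of 16 windows, some of which overlap, against 19.6% of all windows. Hk2 and Pgk1 had 2 matches each and Ldha had 5, of which 4 came from its 2 copies of CACGTG, the E-box, since that palindrome holds ACGTG on both strands. CACGTG stood in a window of 1 of 10 enzymes, Ldha, against 8.09% of all genes, and GGGCGG, the GC box, in a window of 10 of 10 against 38.2%. By window, GGGCGG stood in 12 of 16 against 35.7% of all windows. The windows of the enzymes were 52.7% to 69.0% G or C, and windows of like content were not compared. The 6 enzymes with ACGTG were Hk2, Aldoa, Pgk1, Pgam1, Pkm and Ldha, with log2 differences from -0.99 (Hk2) to -0.33 (Pgk1). Those without it were Gpi1, Pfkl, Tpi1 and Eno1, from -0.94 (Eno1) to -0.35 (Gpi1). A link between matches and differences was not tested. These matches describe letters in these windows only, and a window without ACGTG may hold another form of the HIF core.

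The genes outside the 10 whose profile over the 6 libraries was closest to the mean profile of the enzymes were Mrpl12, Higd1a, Atp5o, Cyc1 and Mdh2, among 10921 genes with a mean of at least 5 TPM. Closeness was the root mean square distance between centred log2(TPM + 1) profiles, which ran from 0.066 for Mrpl12 to 0.084 for Mdh2. The enzymes themselves lay at 0.094 (Pgam1) to 0.39 (Hk2) from their own mean. All 5 genes were closer to it than any member, but they were picked as the closest of 10921, while the members were not picked by distance. Mrpl12, a mitochondrial ribosomal protein, stood at 89.0, 76.2 and 73.1 TPM in Tumor libraries and at 129.5, 126 and 115 TPM in WT libraries. Cyc1, cytochrome c1 of respiratory complex III, stood at 229.7, 205 and 165 TPM in Tumor libraries and at 323, 352 and 316 TPM in WT libraries. Mdh2, the mitochondrial malate dehydrogenase, stood at 277, 268 and 216 TPM in Tumor libraries and at 356, 432 and 399 TPM in WT libraries.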

How the data were processed

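The authors deposited 1 table of the series, named as raw counts, whose values are TPM: each column sums to 1000000, values are not whole, and low values fall with transcript length. Per the submitters' processing notes the listed genome build is GRCm38.p6, and DESeq2 is listed without version or role. The aligner is not given in the sources used here, nor are the quantifier and the annotation. Values were tested as log2(TPM + 1) with limma 3.58.1 (mean-variance trend, robust moderation, group alone) in R 4.3.3, over the 14144 genes that reached 1 TPM in 3 or more libraries, with Benjamini-Hochberg adjustment over all of them. Differences on this scale understate changes of low genes. The fit was tested on simulated data with independent noise, equal for every gene, and no differences in cell content. That run checks the code and not how well the fit suits libraries like these. Python 3.11.15, pandas 2.3.3, scipy 1.17.1 and matplotlib 3.10.9 were used for the rest.

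The enzymes, gene lists and tests were chosen with earlier results of these data known. All 10 enzymes are named, and from each other list the 2 genes with the smallest p, since none passed, plus isoenzymes of the members' steps and the 5 closest profiles. 1 listed gene is not reported here and entered no list count or share. Pfkfb2 and the marker Elovl3 were named after their values were seen. Biological replicates are separate samples per the titles. Alternatives were the pseudocount, the filter, scaling factors, moderation, a replicate block, marker lists as covariates and leaving out libraries.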

Additional observations from a re-analysis of the deposited data

How the results depend on the processing

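The enzyme median of -0.59 kept its sign under every alternative run and moved by more than the replicate spread of 0.112 with median-ratio factors (-0.82), upper-quartile factors (-0.79), the thermogenic list (-0.72) and the macrophage list (-0.79) as covariates, and without Tumor replicate 1 (-0.73). Leaving out each library gave -0.73 (Tumor replicate 1) to -0.51 (Tumor replicate 3), and was -0.70 without both libraries poor in lymphoid transcripts. Gpi1 (0.0091, SE 0.35) and Pgk1 (0.029, SE 0.31) turned positive with the thermogenic covariate, and the cause was not tested. No enzyme and none of the other 41 genes passed under any alternative run. Over all genes 0 passed, except 1 with the B cell covariate.

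With the replicate block the enzyme median was -0.59, 0 genes passed, and 2 enzymes had an unadjusted p below 0.05 in place of 6, as did 1.29% of all genes in place of 5.45%. Same-numbered libraries did not deviate together (correlations of -0.758, 0.205 and -0.843 across genes), and none correlated best with its own number. The highest correlation, 0.853, was between Tumor replicate 1 and WT replicate 3, the 2 libraries poor in lymphoid transcripts. Such correlations take up differences in cell content, so they cannot show whether the number marks a pairing. Read depth is unknown, which leaves counting error of low genes unmeasured.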
